A study of Arabidopsis thaliana with 36 samples.

Results

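The genes described here are the nuclear genes of Arabidopsis thaliana that encode the subunits of photosystem I (PSA) and photosystem II (PSB) and the chlorophyll-binding proteins of their antennae (LHCA and LHCB). They were taken by gene identifier from a list whose rule uses no expression value, although the list was drawn up with earlier results of these data known. All 44 listed genes were present among the 19437 genes of the deposited table, namely 6 LHCA, 15 LHCB, 12 PSA and 11 PSB genes. The study asked how the transcriptome of a rosette leaf changes around bolting, the outgrowth of the flowering stem, and compared an early-bolting mutant with wild type. Leaf 6, tagged by a thread, was harvested at T0, T2, T4 and T6, which were 25 days after stratification and then 2, 4 and 6 days after T0. RNA was sequenced in 3 libraries (A, B and C) for each of 12 combinations of genotype and time point.

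TM1 and TM2 are isolates of the atx1 atx3 atx4 triple mutant, which carries T-DNA insertions in 3 genes for trithorax-type histone H3 lysine 4 methyltransferases. The isolates descend from different F1 plants and may differ in background mutations. WT is the Col-0 accession, with none of these insertions. All plants grew side by side in long days, and the TM plants had just begun to bolt when sampling started whereas WT plants were vegetative. Each combination was 1 pool of 10 leaves that was ground together and then divided into the 3 libraries. The spread between libraries, on which the adjusted p-values rest unless pools are named, therefore measures library preparation and sequencing and not the variation between plants.

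Light-harvesting proteins bind chlorophyll and carotenoids and pass excitation energy to the reaction centres. LHCB1, LHCB2 and LHCB3 form the trimers of light-harvesting complex II, LHCB4, LHCB5 and LHCB6 are the monomeric antenna proteins that link the trimers to photosystem II, and the LHCA proteins form the antenna belt of photosystem I. Their transcripts are among the most abundant of a green leaf, respond to light and the circadian clock, and decline as a leaf ages and dismantles its chloroplasts. In a whole leaf, fewer cells with chloroplasts and less RNA per cell cannot be told apart.

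The depth of the 36 libraries ranged between 4407618 and 11714474 reads, with a median of 7001287. Values are FPKM, read counts scaled to gene length and library depth, and were compared as log2(FPKM + 1). Fold changes below are on that scale. The reads come from the 3' ends of transcripts, so division by gene length bears on levels compared between genes but not on a gene compared between groups. A gene is called past the threshold where limma gave a Benjamini-Hochberg adjusted p under 0.05, over all 19437 genes, for TM1 and for TM2 against WT in the same direction.

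The 44 genes differed widely in level. PSBY (AT1G67740), a small membrane subunit of photosystem II, had the highest mean over all libraries, 7978 FPKM, followed by LHCB1.3 (AT1G29930) with 7330, PSAG (AT1G55670) with 5421 and PSAF (AT1G31330) with 4446 FPKM. At the low end LHCB7 (AT1G76570), a rare member of the family, averaged 1.55 FPKM and LHCB4.3 (AT2G40100), an isoform of the monomeric antenna protein CP29, averaged 0.774 FPKM. LHCB4.3 and LHCB7 were the only members with a mean under 3 FPKM, and their values carry few reads. Of the 44 genes, 22 were among the 100 genes with the highest mean FPKM.

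Together the 44 genes took 12.5% ± 0.786 of the summed FPKM of a library in TM1, 12.2% ± 0.526 in TM2 and 13.0% ± 0.589 in WT at T0 (SD, n = 3 libraries each). At T2 the share was 8.85% ± 0.164 in TM1, 7.96% ± 0.0723 in TM2 and 7.54% ± 0.492 in WT. WT thus had the lowest mean share of the 3 genotypes at T2, but its libraries (6.98% to 7.91%) overlapped those of TM2 (7.90% to 8.04%). For the LHCA genes WT had the highest mean share at T2 (0.888%, against 0.811% in TM1 and 0.711% in TM2). At T4 WT had the highest share, with 7.46% ± 0.311 in TM1, 6.42% ± 0.0315 in TM2 and 8.88% ± 0.319 in WT. At T6 the share was 8.25% ± 0.285 in TM1, 6.88% ± 0.286 in TM2 and 9.70% ± 0.0455 in WT. Every TM library lay below every WT library at T4 and T6. The LHCB genes contributed most to the loss after T0, with 4.52% in TM1, 4.39% in TM2 and 4.72% in WT at T0 against 2.28%, 1.85% and 2.15% at T2.

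**Figure D1:**
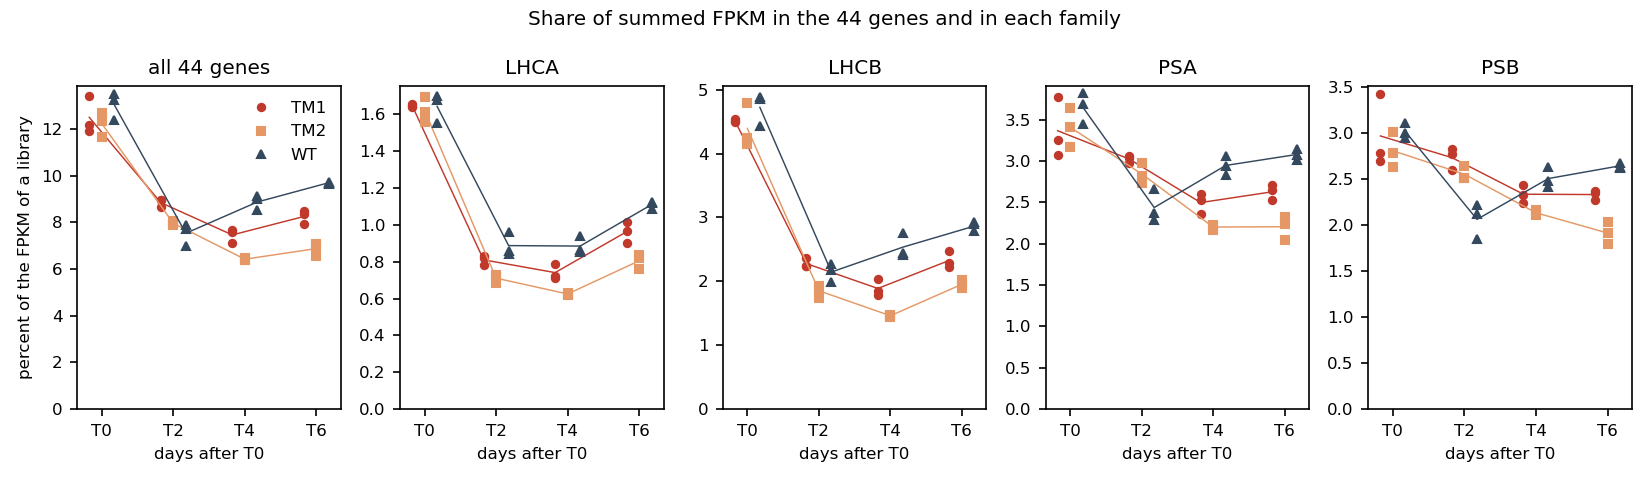
Percent of the summed FPKM of each library (vertical axis) taken by all 44 genes and by each family at T0, T2, T4 and T6 (horizontal axis, days after T0), with points for libraries and lines through group means of TM1, TM2 and WT. The share of all 44 genes fell after T0 in every genotype, and at T4 and T6 its TM1 and TM2 points lie below its WT points. For the PSB genes TM1 and WT points overlap at T4.

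The first question was how these genes changed with leaf age in all genotypes. Here the means of the 3 libraries of a pool were compared by limma, 3 pools per time point, with genotype as a covariate. The pools of a time point shared their day of harvest, so leaf age and day of harvest cannot be told apart. A change with age means here and below a change between time points, and the pool p-values do not cover differences between harvests. At T2, 17 of the 44 genes were lower than at T0, where 7.78% of all genes were lower, and 2 were higher (LHCA5 and PSAE2), where 23.1% of all genes were higher. Such shares of all 19437 genes, called by the same rule in the same direction, are given below as the background. The median log2 fold change was -0.31 over the members and 0.16 over all genes. Of the 17 genes, 10 fell at least 2-fold, namely 7 LHCB genes, LHCA1, LHCA4 and PSAD2, while none of the 11 PSB genes passed the test. Between T2 and T4, 2 members fell (LHCA6 and LHCB1.1, background 3.63%) and 0 rose (background 4.47%). Between T4 and T6, 3 members rose (LHCB1.1, LHCB2.1 and LHCB2.2, background 0.813%) and 0 fell (background 2.19%). Over the whole interval, 21 members were lower at T6 than at T0 (background 13.4%) and 1 was higher, LHCA5 (background 25%). The 21 were 4 of 6 LHCA, 10 of 15 LHCB, 5 of 12 PSA and 2 of 11 PSB genes, the last being PSBS and PSBY. The deposited scale itself moved with age: after median ratio scaling the median over all genes was 0.02 for T2 against T0 and 0.02 for T6 against T0, against 0.16 and 0.12 as deposited, and the members lower than at T0 then numbered 23 at T2 and 25 at T6. With quantile normalization they numbered 15 at T2 and 18 at T6.

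LHCB1.1 and the 3 LHCB2 genes, all encoding proteins of the light-harvesting complex II trimers, changed most with age. LHCB1.1 (AT1G29920) had 5643, 5768 and 5922 FPKM in TM1, 4742, 5551 and 5154 FPKM in TM2 and 6553, 5950 and 6266 FPKM in WT at T0. At T2 its libraries held 852, 830 and 819 FPKM in TM1, 683, 673 and 633 FPKM in TM2 and 948, 1062 and 981 FPKM in WT. The values of the time points were far apart in each genotype, and the fall over pools was 6.95-fold (log2 fold change -2.80 ± 0.16 SE, limma adjusted p = 1.16e-06). At T6 LHCB1.1 was at 951, 1061 and 970 FPKM in TM1, 650, 540 and 615 FPKM in TM2 and 1107, 1064 and 1079 FPKM in WT, still 6.59-fold below T0 over pools (limma adjusted p = 1.09e-06).

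The LHCB2 genes encode trimer proteins that are phosphorylated in state transitions. LHCB2.2 (AT2G05070) had 887, 724 and 602 FPKM in TM1, 779, 761 and 751 FPKM in TM2 and 851, 844 and 912 FPKM in WT at T0. At T2 these were 92.4, 83.4 and 93.5 FPKM in TM1, 73.5, 79.2 and 101 FPKM in TM2 and 97.1, 127 and 122 FPKM in WT, an 8.17-fold fall over pools (limma adjusted p = 5.48e-06). The T0 and T2 libraries were far apart in every genotype. LHCB2.3 (AT3G27690) was at 477, 351 and 268 FPKM in TM1, 350, 373 and 290 FPKM in TM2 and 501, 390 and 460 FPKM in WT at T0. Its T2 libraries held 53.0, 49.3 and 55.5 FPKM in TM1, 51.8, 41.2 and 37.0 FPKM in TM2 and 31.1, 38.1 and 34.3 FPKM in WT, so that LHCB2.3 fell 8.65-fold over pools, with a log2 fold change of -3.67 in WT against -2.73 in TM1 and -2.94 in TM2. LHCB2.1 (AT2G05100) fell 7.21-fold over pools (limma adjusted p = 6.34e-06). LHCB2.1 and LHCB2.2 then rose again between T4 and T6 over pools (log2 fold changes 1.05 ± 0.21 and 1.06 ± 0.21 SE, limma adjusted p = 0.0251 and 0.027).

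Against this, LHCA5 (AT1G45474), a low-abundance LHCA protein that helps to attach the NADH dehydrogenase-like complex to photosystem I, was the only member higher at T6 than at T0. Its T6 libraries held 30.9, 25.3 and 23.2 FPKM in TM1, 25.0, 23.3 and 24.1 FPKM in TM2 and 27.8, 28.9 and 21.7 FPKM in WT. At T0 they held 16.3, 16.8 and 18.5 FPKM in TM1, 17.8, 14.7 and 17.8 FPKM in TM2 and 25.0, 21.2 and 14.9 FPKM in WT. The time points did not overlap in TM1 and TM2 but did in WT, and the change over pools was 0.48 ± 0.13 SE on the log2 scale (limma adjusted p = 0.0141). The call for LHCA5 was lost after median ratio scaling. LHCA4 (AT3G47470), the most abundant antenna gene of photosystem I, had 2476, 2575 and 2314 FPKM in TM1, 1635, 1839 and 1789 FPKM in TM2 and 2889, 2918 and 2971 FPKM in WT at T6. At T0 it had 4744, 5065 and 5538 FPKM in TM1, 4358, 4782 and 4742 FPKM in TM2 and 5447, 4773 and 5339 FPKM in WT. Every T6 library lay below every T0 library, and the fall over pools was 2.13-fold (limma adjusted p = 0.000405). PSBY had 7082, 6699 and 7218 FPKM in TM1, 3831, 5673 and 5104 FPKM in TM2 and 7370, 8202 and 7945 FPKM in WT at T6, against 14146, 10018 and 10379 FPKM in TM1, 11517, 9280 and 9695 FPKM in TM2 and 12806, 12081 and 11699 FPKM in WT at T0. Here too no library of T6 reached the T0 level (1.75-fold fall over pools, limma adjusted p = 0.0207). LHCB1.3 and PSAG did not pass the test over pools for T6 against T0.

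**Figure D2:**
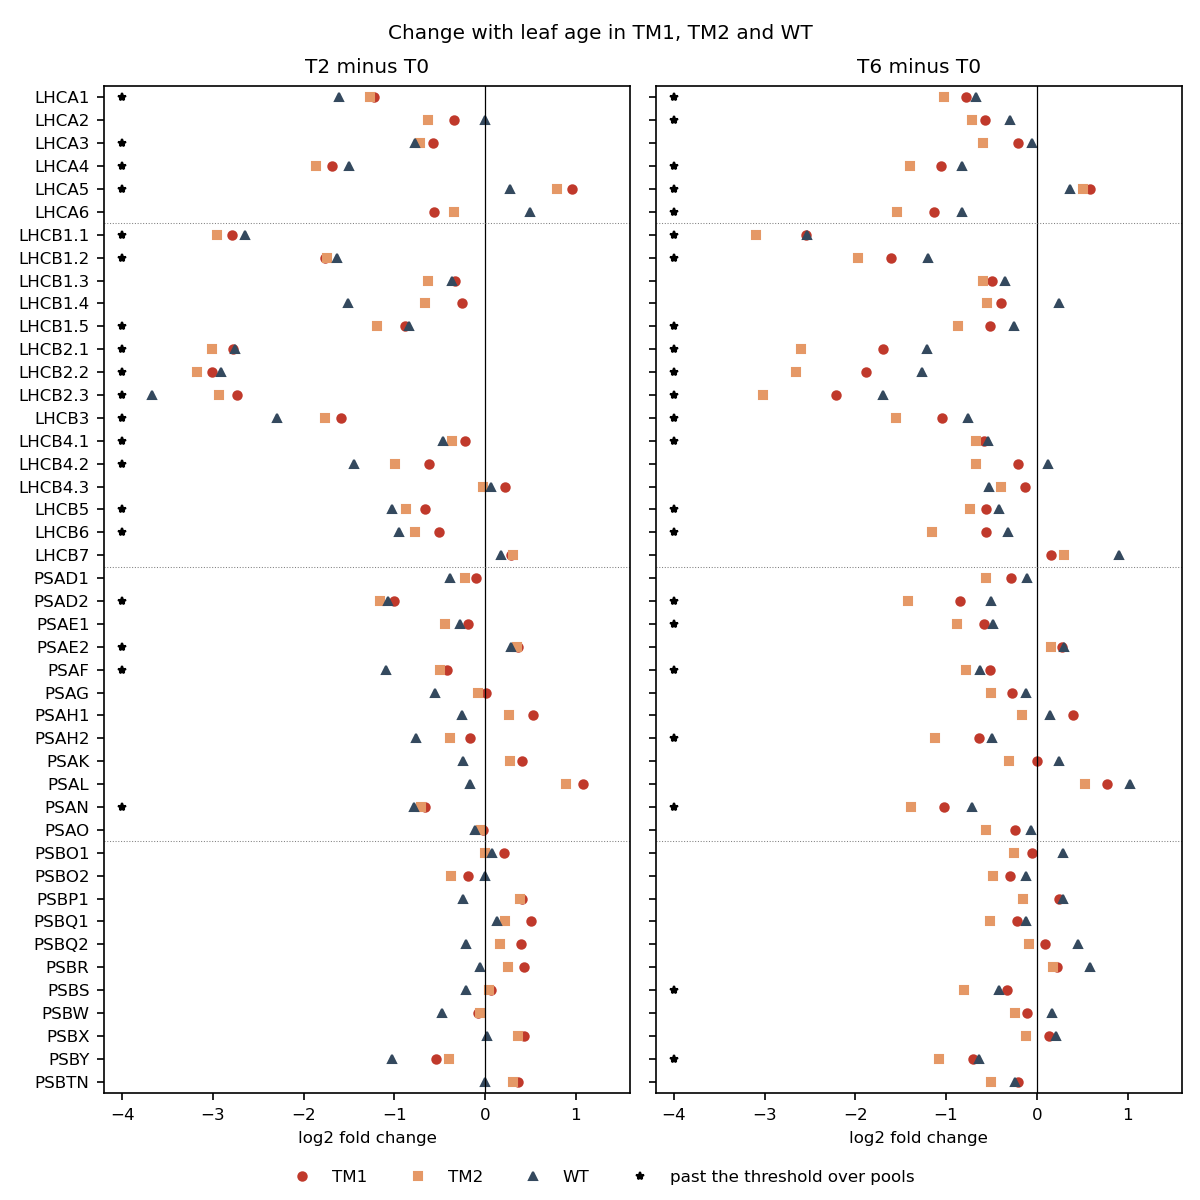
Log2 fold change (horizontal axis) of each of the 44 genes (rows, with dotted lines between families) at T2 against T0 and at T6 against T0 in TM1, TM2 and WT, with a star where the change over pools passed the threshold. The LHCB1.1 and LHCB2 points lie between -3.67 and -2.65 at T2, whereas most PSB points lie near 0.

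The upstream regions of the genes with the largest changes are shown from 250 bases before to 50 bases after the RefSeq gene start (TAIR10.1 build, 5' to 3' on the strand of the gene). LHCB2.1 (chr2:1824431-1824730, minus strand), LHCB2.2 (chr2:1800423-1800722, minus strand), LHCB2.3 (chr3:10255656-10255955, plus strand) and LHCB1.1 (chr1:10475920-10476219, minus strand) changed most with age. LHCB1.4 (chr2:14524357-14524656, plus strand) and PSAL (chr4:7521007-7521306, plus strand) differed most between TM and WT at T2. Capitals mark matches, on either strand, to the G-box CACGTG, the I-box GATAAG, the CCAAT-type site CCAATC, the CCA1-binding site AAAAATCT and the evening element AAAATATCT, which are short motifs known from light- and clock-regulated plant promoters.
LHCB2.1: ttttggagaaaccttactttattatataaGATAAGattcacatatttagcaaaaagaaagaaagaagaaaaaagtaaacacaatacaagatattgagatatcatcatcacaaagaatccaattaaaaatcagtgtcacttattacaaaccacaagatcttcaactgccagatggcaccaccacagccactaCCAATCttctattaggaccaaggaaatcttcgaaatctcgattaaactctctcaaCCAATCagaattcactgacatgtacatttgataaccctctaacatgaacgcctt
LHCB2.2: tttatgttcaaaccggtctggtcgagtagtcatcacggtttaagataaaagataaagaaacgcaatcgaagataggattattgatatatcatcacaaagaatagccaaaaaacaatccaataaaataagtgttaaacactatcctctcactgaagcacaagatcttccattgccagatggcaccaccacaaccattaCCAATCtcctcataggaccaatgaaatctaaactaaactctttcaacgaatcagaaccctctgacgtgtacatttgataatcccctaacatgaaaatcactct
LHCB2.3: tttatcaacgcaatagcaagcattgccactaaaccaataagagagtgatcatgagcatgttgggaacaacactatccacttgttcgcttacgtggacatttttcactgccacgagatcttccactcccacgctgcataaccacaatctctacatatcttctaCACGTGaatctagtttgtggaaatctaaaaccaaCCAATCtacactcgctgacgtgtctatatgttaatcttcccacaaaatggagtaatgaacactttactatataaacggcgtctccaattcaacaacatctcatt
LHCB1.1: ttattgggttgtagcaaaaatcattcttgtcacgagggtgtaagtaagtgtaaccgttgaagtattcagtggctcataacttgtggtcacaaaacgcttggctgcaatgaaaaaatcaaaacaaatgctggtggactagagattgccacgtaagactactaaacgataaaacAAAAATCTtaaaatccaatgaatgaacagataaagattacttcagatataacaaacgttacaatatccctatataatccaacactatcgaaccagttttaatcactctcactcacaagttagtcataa
LHCB1.4: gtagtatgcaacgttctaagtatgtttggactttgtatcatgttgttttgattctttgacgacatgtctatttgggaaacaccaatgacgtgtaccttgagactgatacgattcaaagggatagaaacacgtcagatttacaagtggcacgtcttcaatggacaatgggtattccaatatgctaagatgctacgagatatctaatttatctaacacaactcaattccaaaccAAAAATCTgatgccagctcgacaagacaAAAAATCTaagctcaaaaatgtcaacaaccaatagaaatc
PSAL: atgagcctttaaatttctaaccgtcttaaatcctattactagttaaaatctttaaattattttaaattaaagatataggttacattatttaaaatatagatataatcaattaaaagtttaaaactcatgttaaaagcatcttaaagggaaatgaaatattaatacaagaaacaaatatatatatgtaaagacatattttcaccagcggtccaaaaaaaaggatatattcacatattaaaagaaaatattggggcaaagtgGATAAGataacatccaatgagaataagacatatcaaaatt

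Each of the 3 LHCB2 upstream regions held a CCAATC match at a similar place, with its first base at -59 in LHCB2.1, -53 in LHCB2.2 and -54 in LHCB2.3 counted from the gene start. LHCB2.3 also held a G-box at -88, LHCB1.1 a CCA1-binding site match at -78, and LHCB1.4 matches to the same letters at -18 and 11. Among the 44 genes, 16 regions held a G-box (36.4%, against 7.68% of 27443 regions of the same length), 18 an I-box (40.9% against 14.6%), 15 a CCAATC match (34.1% against 12.3%), 6 a CCA1-binding site match (13.6% against 7.88%) and 1 an evening element (2.27% against 2.82%). By family, a G-box was held by 7 of 11 PSB, 4 of 12 PSA, 4 of 15 LHCB and 1 of 6 LHCA regions, an I-box by 4 of 11 PSB, 8 of 12 PSA, 4 of 15 LHCB and 2 of 6 LHCA regions, and a CCAATC match by 3 of 11 PSB, 1 of 12 PSA, 8 of 15 LHCB and 3 of 6 LHCA regions. In 9 members no match was found in this window. No matches to different motifs overlapped. A match is a description of the letters and not evidence of a bound factor.

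The second question was whether the members differed between TM and WT at the same time point. At T0, when TM plants had just begun to bolt, 1 of the 44 genes was lower (background 3.03%) and 0 were higher (background 6.84%). The median log2 fold change over the members was -0.10, against 0.04 over all genes. The 1 gene was PSAH2, which encodes a photosystem I subunit at the docking side for light-harvesting complex II. PSAH2 (AT1G52230) had 407, 379 and 325 FPKM in TM1 and 411, 391 and 357 FPKM in TM2, against 510, 432 and 490 FPKM in WT. The 6 TM libraries lay below the 3 WT libraries. The log2 fold change was -0.37 for TM1 and -0.30 for TM2 (both ± 0.09 SE, limma adjusted p = 0.00344 and 0.00951). Most genes given by library here and below were picked among called genes whose TM and WT libraries did not overlap. Their lack of overlap is set by that choice and is not further support. The same holds for the two-sided exact permutation p = 0.0119 of PSAH2, the smallest that 84 arrangements of libraries allow. The call for PSAH2 was lost when the C libraries of all groups were left out. No member reached 2-fold at T0 (background 1.39%).

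At T2, 12 members were higher in TM (background 11.3%) and 4 were lower (background 6.44%). The higher genes were 4 of 11 PSB (PSBP1, PSBQ2, PSBR and PSBW), 4 of 12 PSA (PSAG, PSAH1, PSAK and PSAL), 3 of 15 LHCB (LHCB1.4, LHCB3 and LHCB6) and 1 of 6 LHCA genes (LHCA3). The lower genes were LHCA2, LHCA6, LHCB1.1 and LHCB1.2, so all 4 belonged to the antenna. All 6 TM libraries lay above the 3 WT libraries in 15 members (background 17.8%) and below them in 5 (background 10%). The median over the members was 0.18, against 0.09 over all genes. The isolates were less alike when each was counted alone against WT. TM1 had 21 higher and 4 lower members (3157 and 1962 of all genes). TM2 had 12 higher and 10 lower members (2859 and 1514 of all genes), and 19 of its 44 values were negative. Leaving out the A libraries left 6 higher members and leaving out the B libraries left 7, and the lower members were 1 without the B and 2 without the C libraries. With median ratio scaling 9 members were higher and 6 lower, and of all genes called at T2, 47.3% were higher against 63.6% as deposited.

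PSAL (AT4G12800), the photosystem I subunit around which the docking site for light-harvesting complex II is built, was the only member to reach 2-fold in both isolates (background of 2-fold calls at T2, 2.19%). It had 782, 1206 and 824 FPKM in TM1 and 873, 767 and 963 FPKM in TM2, against 314, 382 and 429 FPKM in WT. The lowest TM library was well above the highest WT library, and the log2 fold change was 1.26 as a mean of the isolates (± 0.18 SE for each isolate, limma adjusted p = 1.39e-06 for TM1 and 5.66e-06 for TM2). At T0 the genotypes overlapped, with 476, 468 and 372 FPKM in TM1, 508, 547 and 360 FPKM in TM2 and 456, 334 and 480 FPKM in WT. LHCB1.4 (AT2G34430), which encodes a trimer protein, had 1789, 1723 and 1660 FPKM in TM1 and 1152, 1298 and 1297 FPKM in TM2, against 612, 731 and 703 FPKM in WT at T2. Both isolates were clear of WT and TM1 was above TM2 (log2 fold changes 1.34 and 0.87, both ± 0.10 SE, limma adjusted p = 1.17e-11 and 1.15e-07). PSBP1 (AT1G06680), an extrinsic protein of the oxygen-evolving complex, had 803, 806 and 936 FPKM in TM1 and 953, 893 and 801 FPKM in TM2, against 535, 584 and 629 FPKM in WT, a log2 fold change of 0.54 for TM1 and 0.60 for TM2 (limma adjusted p = 0.000327 and 0.000128).

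PSAG, a subunit on the antenna side of photosystem I, had 6036, 6100 and 5984 FPKM in TM1 and 5795, 5120 and 6056 FPKM in TM2, against 4276, 3584 and 5364 FPKM in WT at T2. It was higher in both isolates (log2 fold changes 0.47 and 0.38, both ± 0.12 SE, limma adjusted p = 0.00321 and 0.0213), although 1 TM2 library lay within the range of WT.

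LHCA6 (AT1G19150), the partner of LHCA5 in attaching the NADH dehydrogenase-like complex to photosystem I, had the largest lower value at T2. The libraries of LHCA6 held 85.2, 90.9 and 89.9 FPKM in TM1 and 88.7, 95.9 and 92.9 FPKM in TM2, against 162, 206 and 157 FPKM in WT. The highest TM library was far below the lowest WT library, and LHCA6 had a log2 fold change of -0.96 for TM1 and -0.90 for TM2 (both ± 0.12 SE, limma adjusted p = 5.36e-07 and 2.09e-06). At T0 all 9 libraries lay between 104 and 151 FPKM, so that between T0 and T2 LHCA6 went up in WT (log2 fold change 0.50) and down in TM1 (-0.56) and TM2 (-0.34). LHCA2 (AT3G61470), a protein of the antenna belt, had 2213, 2081 and 2184 FPKM in TM1 and 1766, 1887 and 1975 FPKM in TM2, against 2547, 2932 and 2523 FPKM in WT. The groups did not overlap, and the log2 fold changes were -0.30 and -0.51 (limma adjusted p = 0.0059 and 2.38e-05).

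At T4 the calls were in 1 direction only. Of the 44 genes, 20 were lower in TM (background 4.16%) and 0 were higher (background 4.1%). The 20 were 10 of 15 LHCB, 5 of 12 PSA, 3 of 11 PSB and 2 of 6 LHCA genes. The median log2 fold change was -0.38 over the members and 0.00 over all genes, 42 of the 44 values were negative, and the family medians were -0.59 for LHCB, -0.42 for PSA, -0.34 for LHCA and -0.21 for PSB. In 28 members all 6 TM libraries lay below the 3 WT libraries (background 8.73%). None reached 2-fold in both isolates (background 1.53%). The count was 13 without the A libraries, 16 without the B libraries and 9 without the C libraries, with 0 higher members in each.

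The 3 members furthest below WT in TM at T4 were LHCB2.3, LHCB2.2 and LHCB4.2. LHCB2.3 had 28.2, 39.5 and 42.0 FPKM in TM1 and 22.1, 28.6 and 29.1 FPKM in TM2, against 58.2, 75.8 and 52.9 FPKM in WT. LHCB2.2 had 90.4, 108 and 89.2 FPKM in TM1 and 63.2, 67.5 and 65.2 FPKM in TM2, against 143, 140 and 166 FPKM in WT. In both genes every TM library was below every WT library, TM2 had the lower mean of the isolates, and the log2 fold changes were -0.76 and -1.19 (both ± 0.17 SE, limma adjusted p = 0.00216 and 3.47e-06) for LHCB2.3 and -0.64 and -1.18 (both ± 0.14 SE, limma adjusted p = 0.00111 and 5.24e-08) for LHCB2.2 in TM1 and TM2. LHCB4.2 (AT3G08940), a CP29 isoform of the monomeric antenna, had 72.3, 93.0 and 83.8 FPKM in TM1 and 74.3, 79.6 and 68.3 FPKM in TM2, against 130, 151 and 155 FPKM in WT. Here the isolates overlapped each other and lay below WT, with log2 fold changes of -0.80 and -0.96 (both ± 0.14 SE, limma adjusted p = 9.1e-05 and 3.76e-06).

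Among the other members called at T4, LHCB3, LHCB1.4 and LHCB1.2 had mean log2 fold changes over the isolates of -0.75, -0.75 and -0.73. LHCB1.3, the most abundant antenna gene, had 5665, 6475 and 5864 FPKM in TM1 and 4790, 4588 and 4690 FPKM in TM2, against 7517, 7621 and 8888 FPKM in WT. Its groups did not overlap (log2 fold changes -0.41 and -0.77, limma adjusted p = 0.00333 and 4.24e-07). Of the photosystem I subunits, PSAN (AT5G64040), on the lumenal side where plastocyanin docks, had a mean log2 fold change of -0.63, PSAD2 (AT1G03130), on the stromal side where ferredoxin docks, -0.56, and PSAH2 -0.53. In photosystem II the called genes were PSBO1, PSBQ1 and PSBQ2, all extrinsic proteins of the oxygen-evolving complex, with mean log2 fold changes between -0.44 and -0.33.

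At T6, 13 members were lower in TM (background 2.4%) and 0 were higher (background 2.68%). They comprised 8 LHCB genes (LHCB1.2, LHCB1.4, LHCB2.1, LHCB2.2, LHCB2.3, LHCB3, LHCB4.2 and LHCB6), 4 PSA genes (PSAD1, PSAD2, PSAH2 and PSAN), 1 PSB gene (PSBQ2) and 0 LHCA genes. The median was -0.38 over the members and 0.07 over all genes, 43 of 44 values were negative, and in 31 members all 6 TM libraries lay below the 3 WT libraries (background 6.78%). None reached 2-fold in both isolates (background 1.01%). Leaving out the B or the C libraries left 7 of the calls each. Median ratio scaling gave 21 lower members, and with it 34.6% of all genes called at T6 were higher, against 52.7% as deposited. Quantile normalization gave 9 lower members, with 39.5% of all genes called at T6 higher.

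The LHCB2 genes lay furthest below WT in TM at T6. LHCB2.3 had 74.2, 70.1 and 84.7 FPKM in TM1 and 32.1, 43.3 and 48.4 FPKM in TM2, against 133, 145 and 137 FPKM in WT. LHCB2.2 had 224, 182 and 186 FPKM in TM1 and 99.96, 157 and 111 FPKM in TM2, against 344, 389 and 347 FPKM in WT. In each gene the 3 genotypes formed separate groups, with TM1 between TM2 and WT. The log2 fold changes were -0.85 and -1.74 (both ± 0.17 SE, limma adjusted p = 0.00104 and 4.86e-09) for LHCB2.3 and -0.87 and -1.57 (both ± 0.14 SE, limma adjusted p = 3.15e-05 and 2.84e-10) for LHCB2.2. LHCB2.1 had 143, 124 and 116 FPKM in TM1 and 67.8, 86.5 and 65.1 FPKM in TM2, against 192, 208 and 187 FPKM in WT, with log2 fold changes of -0.62 and -1.42 (both ± 0.11 SE, limma adjusted p = 0.000156 and 1.55e-11). It too formed 3 separate groups.

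**Figure D3:**
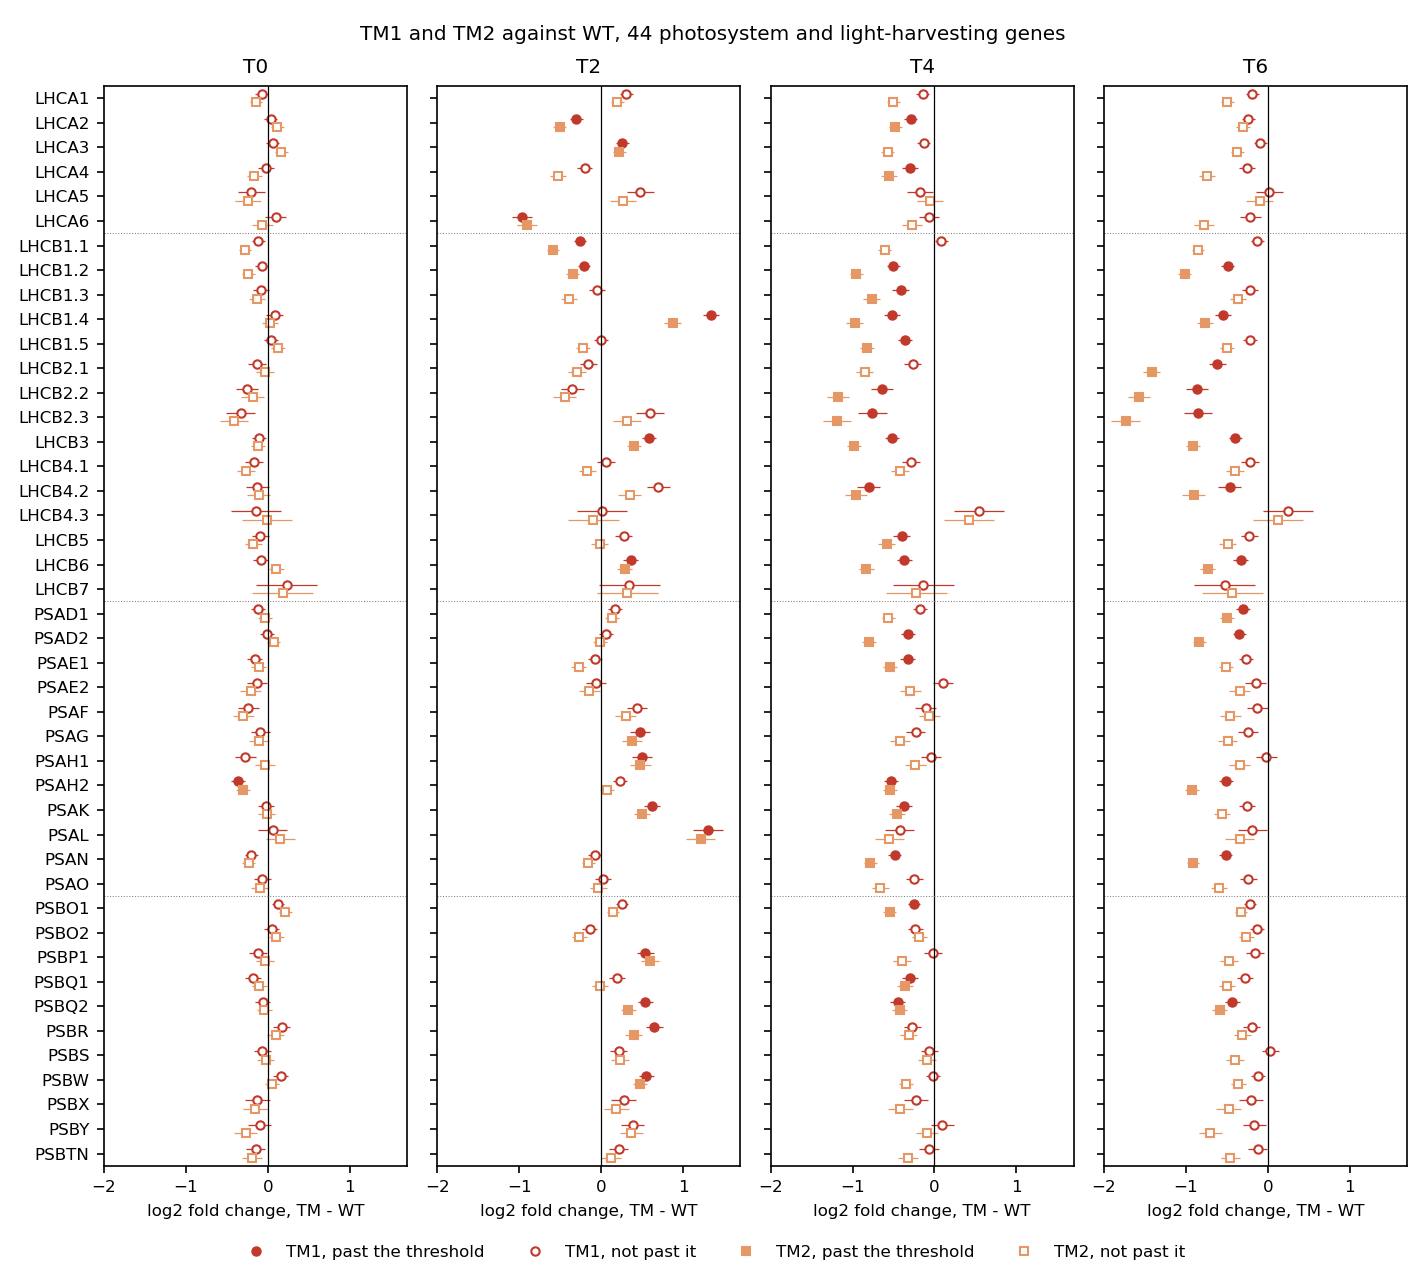
Log2 fold change against WT (horizontal axis, bars ± 1 SE) of each of the 44 genes (rows, with dotted lines between families) of the isolates TM1 (circles) and TM2 (squares) by time point, with filled markers where both isolates passed the threshold. Filled markers lie to the right of 0 in 12 genes at T2 and to the left in 20 genes at T4 and 13 genes at T6.

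Over the 4 time points, 13 members were never past the threshold: LHCA1, LHCA5, LHCB4.1, LHCB4.3, LHCB7, PSAE2, PSAF, PSAO, PSBO2, PSBS, PSBX, PSBY and PSBTN. Lower calls at T4, T6 or both covered 22 members, and 11 of them were lower at both. PSBY, the most abundant member, had a log2 fold change of 0.10 in TM1 and -0.09 in TM2 at T4 (limma adjusted p = 0.75 and 0.746). PSBS, the protein that triggers the dissipation of excess light energy, was likewise at no time past the threshold in both isolates. When the pools rather than the libraries were compared, with time point as a covariate and 8 TM pools against 4 WT pools, 2 members were lower (background 4.73%) and 0 higher (background 7.93%). They were LHCB2.2, at -0.69 ± 0.17 SE (limma adjusted p = 0.0238), and PSAN, at -0.42 ± 0.12 SE (limma adjusted p = 0.0408). Without the A libraries 1 of these calls was left, and without the B or the C libraries 0.

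The third question was whether the change with age itself differed between TM and WT. Between T0 and T6, the change was lower in both isolates than in WT in 2 members (background 1.91%) and higher in 0 (background 0.931%). LHCB1.4 differed from WT in this change by -0.63 in TM1 and -0.79 in TM2 (both ± 0.14 SE, limma adjusted p = 0.00621 and 0.000259), and LHCB1.2 by -0.41 and -0.78 (both ± 0.11 SE, limma adjusted p = 0.0229 and 7.46e-06). LHCB1.4 fell in the isolates (log2 fold change at T6 against T0 -0.39 in TM1 and -0.55 in TM2, limma adjusted p = 0.00242 and 5.15e-05) but not in WT (0.24, limma adjusted p = 0.0587), whereas LHCB1.2 fell in all genotypes (-1.61 in TM1, -1.97 in TM2 and -1.20 in WT). Leaving out the A libraries removed both calls, and leaving out the B or the C libraries removed 1.

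The interval from T2 to T4 was compared after the values had been seen, because most calls against WT were higher in TM at T2 and all were lower at T4. In 22 members the change from T2 to T4 was lower in both isolates than in WT (background 4.64%), and in 1 it was higher (LHCA6, background 2.9%). Without the A, B and C libraries in turn the lower members numbered 13, 14 and 15, and the call for LHCA6 was lost each time. LHCB1.4 fell between T2 and T4 in TM1 and TM2 and rose in WT. Its T4 libraries held 1141, 1364 and 1292 FPKM in TM1 and 939, 868 and 953 FPKM in TM2, against 1639, 1711 and 2108 FPKM in WT. The log2 change was -0.45 in TM1, -0.44 in TM2 and 1.41 in WT (each ± 0.10 SE). PSAL had 668, 724 and 749 FPKM in TM1 and 665, 666 and 628 FPKM in TM2, against 708, 894 and 1390 FPKM in WT at T4, and the WT libraries spread widely. Its log2 change was -0.37 in TM1 and -0.40 in TM2 (limma adjusted p = 0.17 and 0.14), against 1.36 in WT (each ± 0.18 SE, limma adjusted p = 4.1e-07 in WT). LHCB4.2 and LHCB2.3 also rose in WT over this interval, by 1.13 and 0.82 on the log2 scale. In all, 5 of the members higher in TM at T2 were lower in TM at T4, namely LHCB1.4, LHCB3, LHCB6, PSAK and PSBQ2.

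**Figure D4:**
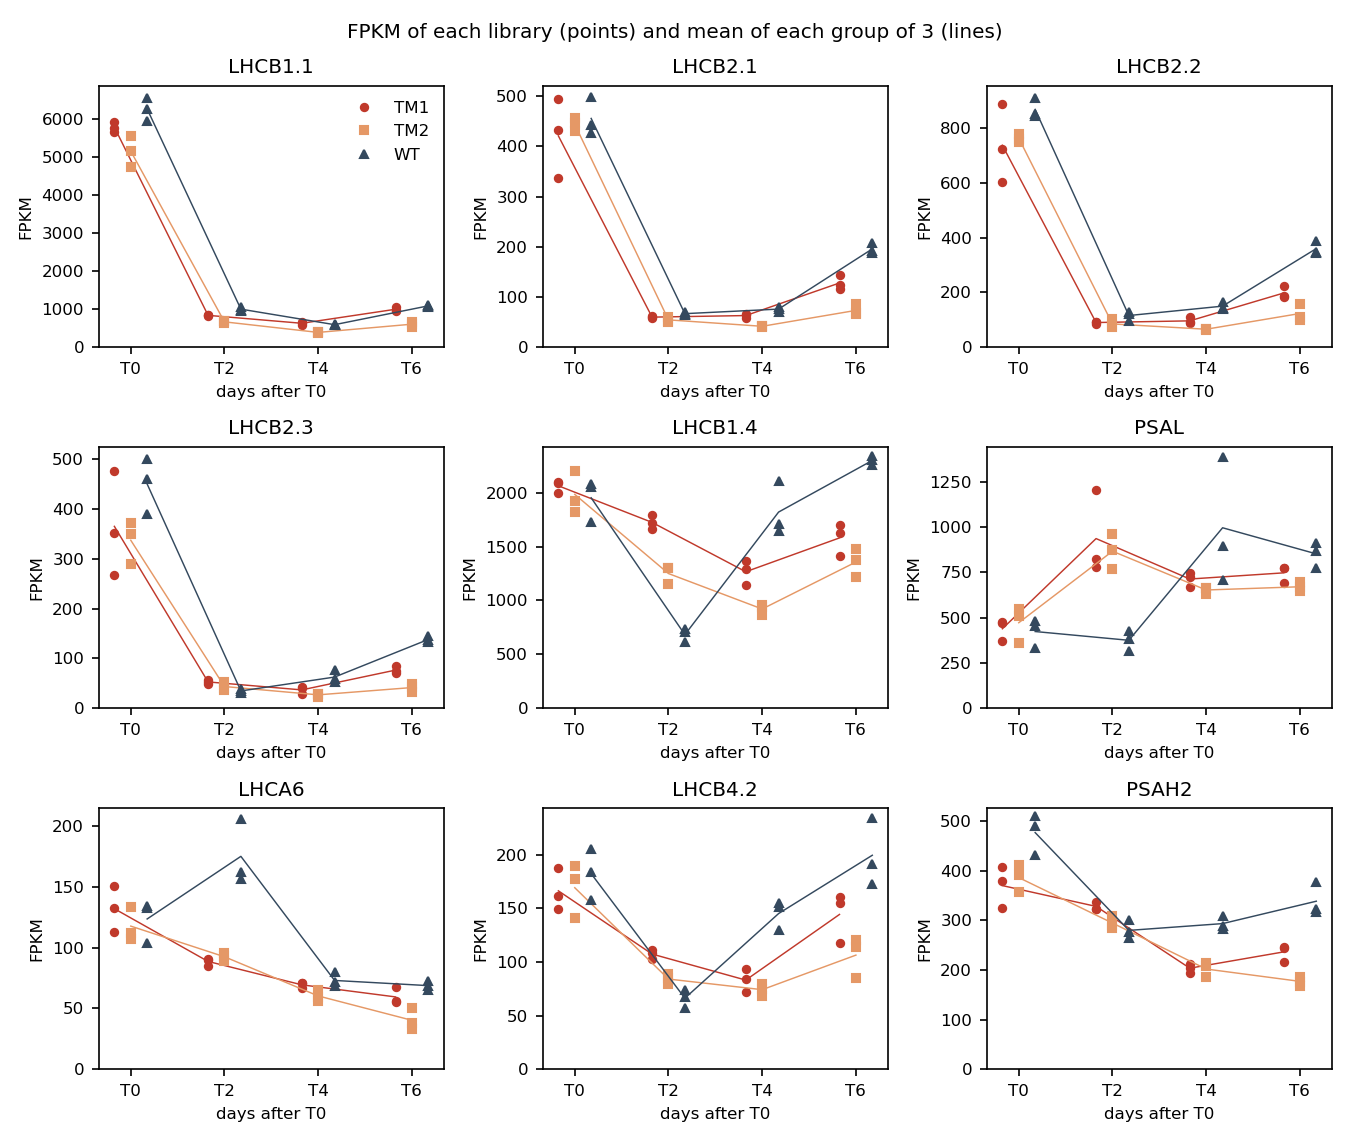
FPKM (vertical axis, from 0) of each library of TM1, TM2 and WT at T0, T2, T4 and T6 for 9 of the genes, with lines through the group means. LHCB1.4 shows TM above WT at T2 and below WT at T4, PSAL shows TM above WT at T2 with TM1 and WT overlapping at T4, and LHCB1.1 and the LHCB2 genes show the fall after T0 in all genotypes.

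The isolates differed from each other in many members at the later time points, with TM1 higher in each member called. TM1 was above TM2 in 0 members at T0 (background 1.85%), 2 at T2 (LHCB1.1 and LHCB1.4, background 0.489%), 18 at T4 (background 4.14%) and 15 at T6 (background 1.78%), and TM2 was above TM1 in 0 members at any time (backgrounds 1.44%, 0.561%, 2.55% and 0.612% in order of time). The median difference TM1 minus TM2 was 0.23 at T4 and 0.29 at T6 on the log2 scale. LHCB2.3 showed the largest difference at T6 (0.89 ± 0.17 SE, limma adjusted p = 0.0018), followed by LHCB2.1 (0.80 ± 0.11 SE) and LHCB1.1 (0.73 ± 0.07 SE). Counted each on its own against WT, which was done after the values had been seen, TM1 had 20 lower members at T4 (background 6.06%) and 13 at T6 (background 3.11%), and TM2 had 32 at T4 (background 8.84%) and 37 at T6 (background 6.12%). The calls shared by both isolates at T4 and T6 were thus all those of TM1. LHCB1.1 showed the gap most plainly at T4, with 655, 637 and 584 FPKM in TM1 and 379, 385 and 393 FPKM in TM2, against 579, 576 and 611 FPKM in WT. TM1 overlapped WT there and TM2 lay far below.

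The shares that paralogs took of their set moved with age and genotype. Within the 5 LHCB1 genes, LHCB1.1 took 23.2% of the summed FPKM in TM1, 21.8% in TM2 and 24.1% in WT at T0, and 6.42%, 6.38% and 7.94% at T2. Over the same interval LHCB1.3 took 37.4%, 38.2% and 37.9% at T0 and 56.8%, 55.8% and 60.6% at T2. LHCB1.4 took 13.3% of the set in TM1 and 12.0% in TM2, against 5.42% in WT at T2, whereas at T4 the shares were 11.7%, 11.3% and 12.7%. The summed FPKM of the 3 LHCB2 genes averaged 1524 in TM1, 1545 in TM2 and 1775 in WT at T0, 202, 182 and 216 at T2, 195, 133 and 288 at T4, and 402, 237 and 694 at T6. PSAH1 gained on its paralog PSAH2 with age, with 31.6% of the PSAH sum in TM1, 34.2% in TM2 and 30.2% in WT at T0 and 48.7%, 50.3% and 40.2% at T6. Some paralogs can share reads: 6 of the 44 genes have stretches of 50 bases in the last 500 bases of their transcripts that occur in another gene, at most 28.4% of such stretches in LHCB2.2 (with LHCB2.1) and 18.6% in LHCB1.3 (with LHCB1.1). These are shares of letters and not of reads. The split between these genes and the genes named as their partners is therefore uncertain, to an extent that was not measured.

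Genes of neighbouring pathways were counted from lists in the same way, and are read against the same background, which was 3.03%, 6.44%, 4.16% and 2.4% of all genes lower in TM and 6.84%, 11.3%, 4.1% and 2.68% higher in order of time. Of 22 chlorophyll synthesis genes, 5 were lower and 1 higher in TM at T0, 8 lower and 1 higher at T2, 7 lower at T4 and 2 lower at T6. PORB, a protochlorophyllide oxidoreductase, was lower at all 4 time points, with mean log2 fold changes of -0.45, -0.61, -1.26 and -0.88. HEMA1, which catalyses the first committed step of tetrapyrrole synthesis, was lower at T2 (-0.64) and T4 (-0.76). So at T2, when 12 photosystem and antenna genes were higher and 4 lower in TM, 8 of the chlorophyll synthesis genes were lower and 1 higher. Of the 4 genes for the chloroplast signal recognition pathway that inserts antenna proteins into thylakoids, 3 (CPSRP43, CPSRP54 and CPFTSY) were lower in TM at T2 and 2 at T4. With age 21 of the 22 chlorophyll synthesis genes fell between T0 and T6 over pools, where 13.4% of all genes fell, and the median was -1.07 over the list and 0.12 over all genes. Of 11 electron carrier and ATP synthase genes, 1 was higher at T2 (FD2, the main leaf ferredoxin) and 1 lower at T6 (ATPD). Of 5 regulators of photosystem genes, GLK2, an activator of chloroplast genes, was lower at T4 (-0.77) and T6 (-0.34), and HY5, a light-signalling factor, at T4 (-0.79). GLK1 was higher at T0 (0.30) and GNC lower (-0.77). None of 6 genes of the LHC-like family (ELIP, OHP and LIL3 genes) passed the test against WT, and of 3 thylakoid kinase and phosphatase genes TAP38 was higher at T2 (0.26).

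Some of the 9 listed clock genes moved between T0 and T2 as well. Over pools PRR7, a daytime repressor of the clock, had a log2 fold change of -2.34 ± 0.15 SE at T2 against T0 (limma adjusted p = 2.66e-06), PRR9 of -1.92 and PRR5 of -1.73, while ELF4 rose by 1.27. In that comparison 7.78% of all genes were lower and 23.1% higher. The other listed clock genes are not described over time here. The summed FPKM of all 9 averaged 385 in TM1, 414 in TM2 and 337 in WT at T0. At T2 the sum averaged 267, 294 and 293, and at T6 562, 480 and 615. PRR7 averaged 136 FPKM in TM1, 118 in TM2 and 120 in WT at T0, 21.6, 26.6 and 23.4 FPKM at T2, and 87.1, 64.6 and 82.6 FPKM at T6. In TM against WT, LUX, an evening-complex factor, was lower at T2, T4 and T6 (-0.49, -0.55 and -0.37) and TOC1 higher at T0 (0.41). The part of the clock genes in the fall of the members after T0 was not tested.

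**Figure D5:**
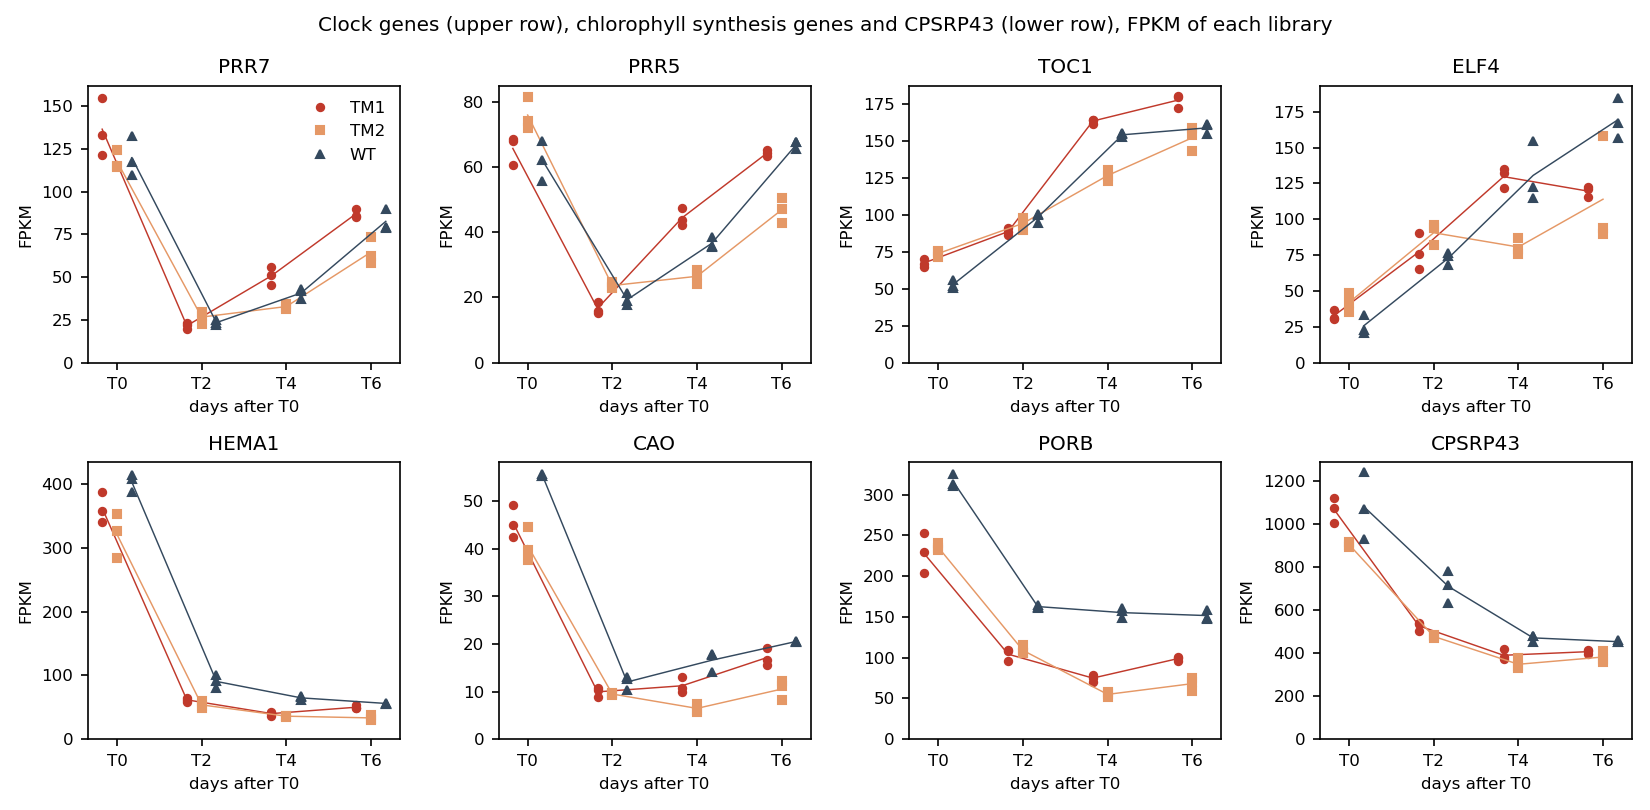
FPKM (vertical axis, from 0) of each library of TM1, TM2 and WT at T0, T2, T4 and T6 for 4 clock genes, 3 chlorophyll synthesis genes and CPSRP43, with lines through the group means. PRR7 and HEMA1 fell after T0 in all genotypes, and PORB was lower in TM1 and TM2 than in WT at each time point.

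Markers of leaf cell types were read beside these results. The summed FPKM of 3 mesophyll markers (RBCS1A, RCA and CA1) ranged between 5760 and 7697 in TM1, 6436 and 6788 in TM2 and 7202 and 7648 in WT at T0, and between 4017 and 4662, 3145 and 3818, and 4529 and 4706 at T6. RBCS1A was lower in TM at T0 and CA1 at T4 and T6. Of 6 epidermis and guard cell markers, PDF1 was lower and KCS10 higher at T0 and T2 and ATML1 lower at T4, and of 4 phloem and xylem markers SUC2 was higher at T2. Of 5 listed senescence genes (NIT2, WRKY75, SAG12, SAG13 and NYE1), 4 were present. Their sum does not show which of the genes it rests on. These 4 genes summed to between 47.9 and 53.8 FPKM in TM1, 4.18 and 6.37 FPKM in TM2 and 2.87 and 4.68 FPKM in WT at T6. At T2 they summed to between 6.89 and 8.86 FPKM in TM1, 6.11 and 7.02 FPKM in TM2 and 2.64 and 4.301 FPKM in WT, so that both isolates lay above WT at T2 and TM1 far above at T6. TM2 overlapped WT at T6, TM1 overlapped WT at T4, and both isolates overlapped WT at T0. The part of these markers in the results was not tested.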

How the data were processed

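RNA from leaf 6 of TM1, TM2 and WT at 4 time points was sequenced by the authors as directional 3' libraries (BrAD-seq), aligned to TAIR10 with Rsubread, converted to FPKM with NOISeq and filtered for low expression with HTSFilter, and the deposited table holds FPKM of 19437 genes in 36 libraries. FPKM divides by gene length, which the 3' reads do not follow. All 36 values of 19437 genes were whole reads within 0.0002 once the value of 1 read was found, which gave the depths (4407618 to 11714474 reads). Samples were grouped by their labels. limma 3.58.1 (R 4.3.3) was fitted to log2(FPKM + 1) with 12 group means and a mean-variance trend, and Benjamini-Hochberg adjustment ran over all genes. Pool means were fitted separately. Single genes were also compared by a two-sided exact permutation test of 6 TM against 3 WT libraries (84 arrangements, smallest p 0.0119). Members given by library were, at each time point, the 3 with the largest change in each direction among called genes whose TM and WT libraries did not overlap, the 3 with the largest change from T0 to T6, the most abundant of each family, and those past 2-fold. The lack of overlap in the first of these sets follows from the choice. Alternatives were another pseudocount, a filter on low FPKM, median ratio scaling, quantile normalization, no trend, 1 time point per fit, a replicate block, leaving out libraries and limma voom on the recovered reads. The fits were tested on simulated data. The members and the gene lists were chosen with earlier results of these data known. The 3 libraries of a group come from 1 pool, so p-values cover only the spread between libraries. Sequences are from RefSeq tables of the TAIR10.1 build, in which all 44 members were matched. No plastid-encoded or floral organ marker gene of the lists was in the table used here.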

Additional observations from a re-analysis of the deposited data

Results flagged for a closer look

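The change from T2 to T4 differed between TM and WT, by a test of the difference itself in both isolates, in 22 members with the lower change in TM. Among the genes given by library these were LHCB1.4 (TM mean minus WT -1.85 on the log2 scale), PSAL (-1.75), LHCB2.3 (-1.43), LHCB4.2 (-1.40), PSBP1 (-0.77), PSAG (-0.75) and PSAH2 (-0.69). LHCA6 differed the other way (0.76). The contrast was chosen after the values had been seen, and each genotype at each time is 1 pool.

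The change from T0 to T6 differed in the same sense for LHCB1.4 (-0.71) and LHCB1.2 (-0.60). The isolates themselves differed, with TM1 above TM2 in 18 members at T4 and 15 at T6, by limma on the difference between them.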

How the results depend on the processing

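No member changed direction among its calls against WT under any setting tried. With at least 2-fold required in addition, the members past the threshold were 0 lower at T0, 1 higher and 0 lower at T2, 0 lower at T4, 0 lower at T6, 0 for the change from T0 to T6, 5 lower and 0 higher for the change from T2 to T4, 0 lower over pools of TM against WT, 10 lower and 0 higher at T2 against T0, 0 lower at T4 against T2, and 9 lower and 0 higher at T6 against T0. Median ratio scaling gave 2 lower at T0, 21 lower at T6, 4 lower over pools, 1 higher at T2 against T0 and 0 higher at T6 against T0, and a median log2 fold change of the members at T2 of 0.086. Quantile normalization gave 0 members for the change from T0 to T6 and 1 over pools, and a median at T6 of -0.25. voom on recovered reads gave 20 lower at T6, 5 lower for the change from T0 to T6 and 2 higher at T6 against T0, as did a filter on a mean of at least 1 FPKM (2) and the fit without a trend (2). With 1 time point per fit 0 were lower at T0. TM1 alone had 21 higher at T2. TM2 alone had 4 lower and 1 higher at T0, 10 lower at T2, 32 at T4 and 37 at T6. Scaling also moved the split of all calls: the share of higher genes was 69.3% as deposited and 56.9% with median ratio scaling at T0, 38.4% and 54.6% for the change from T2 to T4, 62.6% and 47.1% over pools, 74.8% and 51.1% for T2 against T0, 65.2% and 50.5% for T6 against T0, and, with quantile normalization, 27.1% and 39.4% for T6 against T4.

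Leaving out each set of libraries with 1 letter in turn gave 0 to 2 lower members at T0, 6 to 11 higher and 1 to 3 lower at T2, 9 to 16 lower at T4, 7 to 10 lower at T6, 0 to 1 for the change from T0 to T6, 13 to 15 lower and 0 to 0 higher for the change from T2 to T4, 0 to 1 over pools of TM against WT, 1 to 2 higher at T2 against T0, 0 to 2 lower at T4 against T2, and 1 to 2 higher at T6 against T4. Library letters did not pair the samples: 24 correlations of deviations between groups of the same time point ranged between -0.149 and 0.184, with 3 above 0.1 and 7 libraries closest to their own letter. A replicate block on the letter kept 49 of the 50 calls of single members against WT and lost 1, at T2. Leaving the ribosomal RNA loci out of the totals raised the share of the 44 genes, for example to 13.7% in TM1 at T0. LHCB7 and LHCB4.3 had 0 to 33 reads per library, so that their values are the least precise among the members.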
